A study of Mus musculus with 8 samples.

Results

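Trim genes encode tripartite motif proteins, and the set described here is every gene of the deposited results whose symbol is Trim followed by a number, which gave 58 of 23606 genes. Expression was compared in 4T1 cells, a mouse mammary carcinoma line with wild-type genotype that spreads to the lung. All cells were treated overnight with SKL2001, a compound that stabilizes β-catenin and so turns on the canonical Wnt pathway. The Ctrl group (n = 4, replicates 1 to 4) had SKL2001 alone. The hypomethylated group, Hypo (n = 4, replicates 2 to 5), also had decitabine, a cytidine analog that traps DNA methyltransferases and lowers methylation of CG pairs as cells divide. Levels are thus those of decitabine against none on a background of SKL2001, in 1 cell line, and DNA methylation was not measured in these files. None of the sources used here tells whether libraries of 1 group stem from separate cultures. The p-values therefore reflect how far these samples scatter, and part of that scatter may be technical.

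A tripartite motif protein carries a RING finger, B-boxes and a coiled coil, followed by a C-terminal domain that sets its target. The RING finger takes ubiquitin from an E2 enzyme and passes it to that target, while the coiled coil pairs chains into a dimer. Family members are known as restriction factors and regulators of virus sensing, as chromatin corepressors, and as regulators of microtubules, muscle and germ cells. Several are interferon-stimulated genes, and in the mouse many lie side by side on chromosomes 7 and 17.

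Of the 58 Trim genes, 46 had a mean of at least 10 normalized counts over the 8 libraries and were tested, and 12 were below it. A normalized count is the number of reads of a gene divided by the size factor of its library. In Hypo 16 Trim genes rose and 5 fell, as called by limma on the deposited log2-like values at an adjusted p below 0.05 over 15746 genes. The share called was 45.7% of the tested Trim genes, against 22.8% of all tested genes (14.1% rose and 8.75% fell). The 5 genes Trim43b, Trim67, Trim15, Trim40 and Trim71 had a Ctrl mean below 10 and reached the minimum only through Hypo, so they had to differ. Among the 41 Trim genes with a Ctrl mean of at least 10, 11 rose and 5 fell, which is 39% called against 20.2% of all genes with such a Ctrl mean. In these bulk samples fewer cells of a type and less RNA per cell cannot be told apart.

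All 5 falls were in abundant genes. The 20 Trim genes with a mean of at least 1000 normalized counts held 4 that rose, Trim24, Trim26, Trim33 and Trim25, and all 5 that fell. Of all 6793 genes at that level 5.79% rose and 15.1% fell. The median difference of the 46 Trim genes was 0.07 on the transformed scale, beside 0.00 for all tested genes, and 29 of the 46 differences were above 0. The 4 Hypo values lay wholly above the 4 Ctrl values in 16 Trim genes and wholly below in 5, where 15.4% and 10.3% of all tested genes did so (25.7% in all). These counts include the 5 genes that passed the minimum only through Hypo. Among the 41 Trim genes with a Ctrl mean of at least 10, the median difference was 0.05. Of their differences 24 were above 0, beside 7267 of all 14955 genes with such a Ctrl mean. Hypo lay wholly above in 11 of the 41 and wholly below in 5, beside 1860 and 1621 of the 14955. On the recovered whole reads edgeR made the same 21 calls, beside 23.4% of all genes (13.8% rose and 9.63% fell). After quantile normalization the split over all genes moved from 2219 that rose and 1378 that fell to 1818 and 1962.

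**Figure D1:**
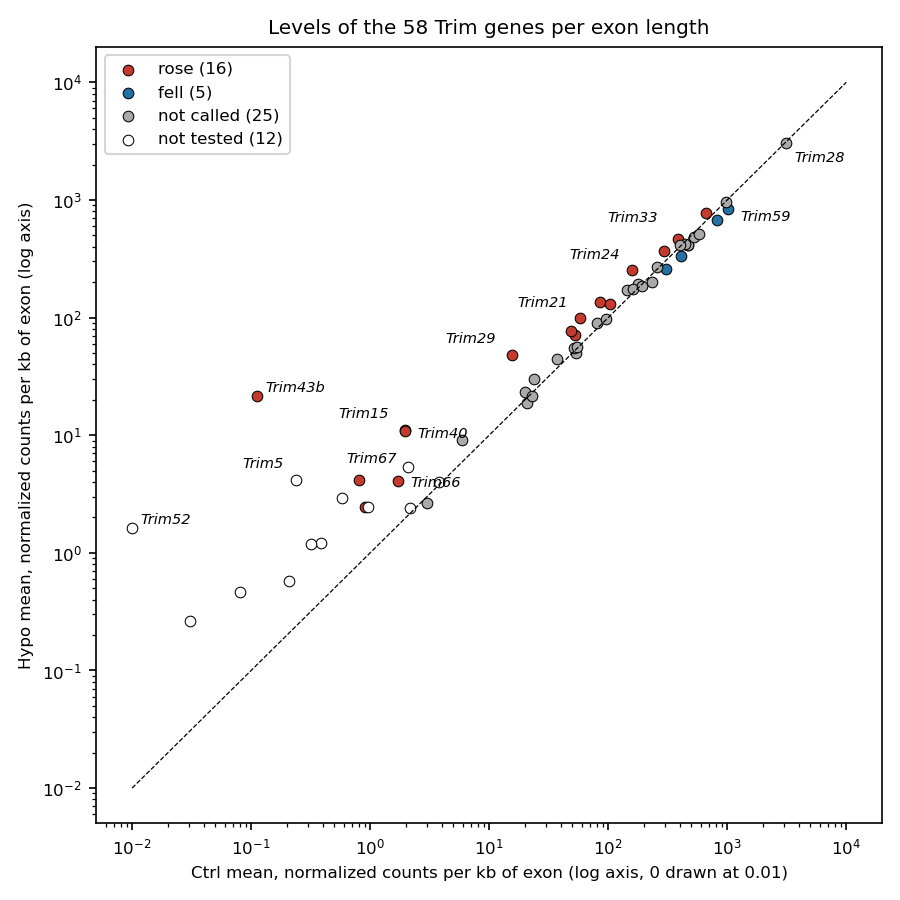
Level of each of the 58 Trim genes in Ctrl (x axis) and Hypo (y axis), as the group mean of normalized counts per kb of exon, on log axes with a level of 0 drawn at 0.01. Points are colored by call, and the dashed line marks equal levels; Trim28 is highest at 3115 in Ctrl, and the genes furthest above the line, such as Trim43b and Trim5, are low in Ctrl.

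**Figure D2:**
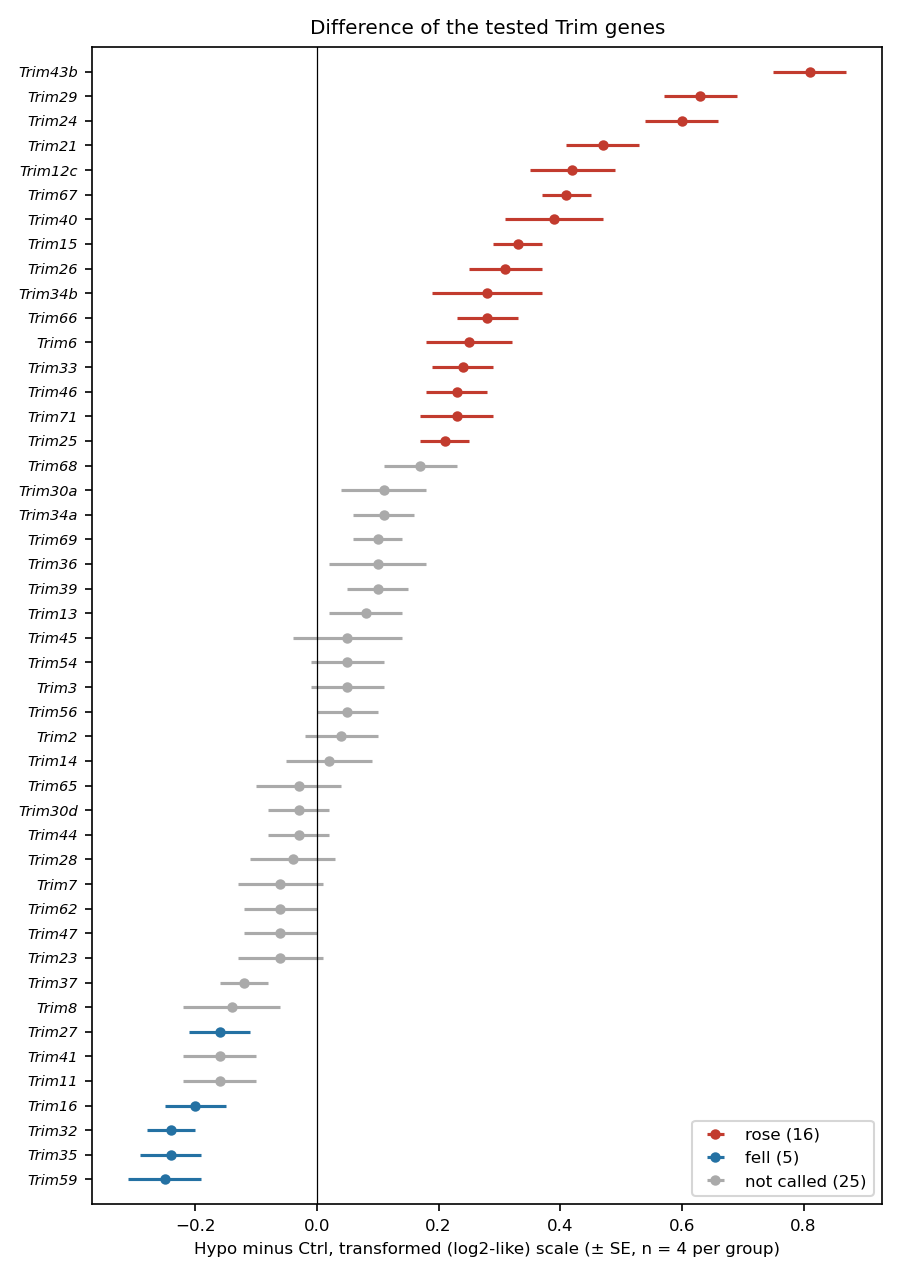
Difference of Hypo minus Ctrl on the transformed (log2-like) scale for the 46 tested Trim genes, with the standard error as bars. The 16 that rose run from 0.81 for Trim43b to 0.21 for Trim25, and the 5 that fell lie between -0.25 and -0.16.

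Per length of exon the family spanned a wide range of levels. Trim28 was the most abundant at 3115 normalized counts per kb in Ctrl and 3031 in Hypo. It was followed in Ctrl by Trim59 at 1019 and Trim44 at 985, and the tested gene with the lowest Ctrl level was Trim43b at 0.113.

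The TIF1 group of Trim proteins works on chromatin and carries a PHD finger and a bromodomain. Of its 4 members 3 rose and none fell, beside 14.1% and 8.75% of all tested genes, with a median difference of 0.26. Trim24 (TIF1α), a coregulator of nuclear receptors (ENSMUSG00000029833, chromosome 6, 37870811 to 37966296, GRCm38), held 1274, 1339, 1523 and 1287 normalized counts in Ctrl replicates 1 to 4. In Hypo replicates 2 to 5 it held 2197, 2207, 2285 and 2023. Every Hypo library was above every Ctrl library, and the means of 1356 ± 115 and 2178 ± 111 (SD, n = 4) stood 1.61-fold apart. On the transformed scale this was 0.60 ± 0.06 (SE; limma adjusted p = 1.8e-05).

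Trim33 (TIF1γ), which acts on SMAD proteins downstream of TGFβ, had 3920, 3482, 4064 and 3767 normalized counts in Ctrl and 4577, 4630, 4477 and 4508 in Hypo. The Hypo libraries were close to each other and all above Ctrl. The rise was 1.19-fold (limma adjusted p = 0.0041). Trim66 (TIF1δ), a heterochromatin protein best known from the testis, was far lower, with 11.3, 20.9, 23.5 and 13.7 normalized counts in Ctrl and 42.8, 42.8, 38.6 and 42.3 in Hypo. It too was separate between the groups and rose 2.40-fold (limma adjusted p = 0.0015).

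Trim28 (KAP1), the corepressor that KRAB zinc finger proteins recruit to silence endogenous retroviruses, did not pass the test. Its Ctrl libraries held 14020, 12279, 11702 and 13811 normalized counts and its Hypo libraries 12360, 12510, 11564 and 13976. The groups overlapped, and the difference was -0.04 ± 0.07 (SE; limma adjusted p = 0.75). Of 13 genes whose products act with Trim28 in silencing, 4 rose and 1 fell, beside 14.1% and 8.75% of all tested genes, and their median difference was 0.03. Without Ctrl replicate 3, 2 of the 13 fell, and the falls over all genes went from 1378 to 2095. Atf7ip, which holds the methyltransferase Setdb1 in the nucleus, rose 1.54-fold from 3484 ± 222 to 5377 ± 165 (limma adjusted p = 6.4e-06). Morc3, a silencing ATPase, rose 1.30-fold (limma adjusted p = 0.00022), while Cbx1, the heterochromatin protein HP1β, fell 1.16-fold (limma adjusted p = 0.0078). Setdb1 itself had 3045 ± 99.4 and 3013 ± 111 (limma adjusted p = 0.86).

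Promoter windows from RefSeq (GRCm38.p6, from 250 bases before the start to 50 after it) are shown for 3 genes that rose from different levels, with each CG pair, the target of methylation, in capitals. The Trim24 window shown is chr6:37870561-37870860 on the plus strand and holds 33 CG pairs. Trim24 has another window, chr6:37900237-37900536, which holds 1 CG pair and is not shown. The window of Trim67, described below, is chr8:124792769-124793068 on the plus strand and holds 28. That of Trim66 is chr7:109508085-109508384 on the minus strand and holds 4. All are written 5′ to 3′ along the gene.
Trim24: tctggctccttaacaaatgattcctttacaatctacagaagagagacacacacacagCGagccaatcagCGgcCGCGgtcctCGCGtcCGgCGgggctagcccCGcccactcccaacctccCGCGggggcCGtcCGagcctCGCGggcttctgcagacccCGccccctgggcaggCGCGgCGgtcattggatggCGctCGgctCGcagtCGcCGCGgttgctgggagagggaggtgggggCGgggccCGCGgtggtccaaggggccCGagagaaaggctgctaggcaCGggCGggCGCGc
Trim67: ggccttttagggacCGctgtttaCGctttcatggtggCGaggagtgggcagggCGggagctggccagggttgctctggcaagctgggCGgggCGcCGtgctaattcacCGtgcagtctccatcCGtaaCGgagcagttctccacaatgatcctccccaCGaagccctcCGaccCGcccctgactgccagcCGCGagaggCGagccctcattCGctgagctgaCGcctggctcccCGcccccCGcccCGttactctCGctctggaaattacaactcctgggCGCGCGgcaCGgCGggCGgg
Trim66: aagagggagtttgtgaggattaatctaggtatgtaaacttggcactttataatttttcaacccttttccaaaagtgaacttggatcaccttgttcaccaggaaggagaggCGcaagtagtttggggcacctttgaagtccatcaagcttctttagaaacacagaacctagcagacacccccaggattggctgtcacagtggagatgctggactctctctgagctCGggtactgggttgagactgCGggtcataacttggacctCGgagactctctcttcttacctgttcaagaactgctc

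Promoters rich and poor in CG pairs were both found among the Trim genes that rose. A window was matched by symbol for 45 of the 58 genes, 59 windows in all. The median was 10 CG pairs over the Trim windows and 7 over all 32851 windows. It was 10 in 17 windows of 13 genes that rose and 18 in only 3 windows of 3 genes that fell. For genes not called it was 15 in 29 windows of 19 genes, and for genes not tested 2 in 10 windows of 10 genes. No window was matched for Trim43b and Trim29, which had the largest differences. At most 2 CG pairs were found in 15 Trim windows, beside 23.3% of all windows, and at least 10 in 30 Trim windows, beside 43.5% of all. The starts are those of RefSeq, and which of them 4T1 cells use was not tested.

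**Figure D3:**
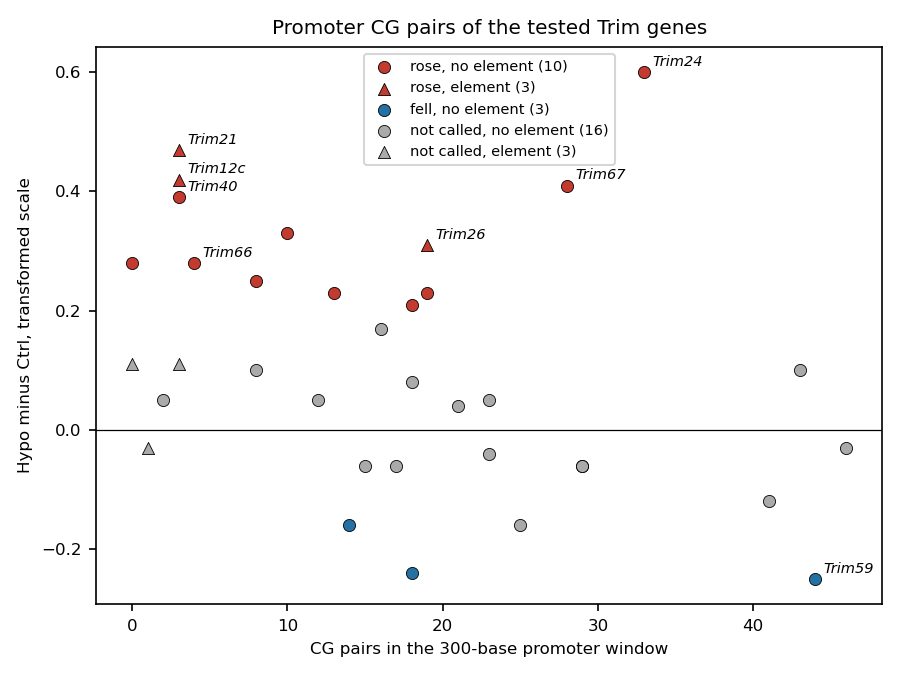
CG pairs in the RefSeq promoter window of each tested Trim gene that has one (x axis, the window with the most CG pairs per gene, 35 genes) against the difference of Hypo minus Ctrl on the transformed scale (y axis). Triangles mark windows with the interferon-response element and colors mark calls; genes that rose run from 0 CG pairs (Trim34b) to 33 (Trim24). The element of Trim2 lies in another window of that gene.

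On chromosome 7, 10 Trim genes of the Trim5, Trim30 and Trim34 families lie in a row from 104218793 to 104507849 (GRCm38), and Trim21 and Trim68 lie nearby. Of these 12 genes 8 were tested. Of those tested 4 rose, Trim21, Trim12c, Trim6 and Trim34b, and none fell, beside 14.1% and 8.75% of all tested genes. The median difference was 0.21. Trim3 lies nearer to the row, from 105604463 to 105633571, but is not in this group and was not called (limma adjusted p = 0.59). Trim21 (ENSMUSG00000030966, 102557921 to 102565486), a cytosolic Fc receptor that marks antibody-coated virus for degradation, held 212, 197, 248 and 196 normalized counts in Ctrl and 357, 363, 367 and 390 in Hypo. The groups were far apart. The rise was 1.73-fold, or 0.47 ± 0.06 (SE) on the transformed scale (limma adjusted p = 8.8e-05).

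Trim12c, Trim12a and Trim5 are the mouse relatives of primate TRIM5, a restriction factor that recognizes retroviral capsids. Trim12c had 297, 337, 351 and 292 normalized counts in Ctrl and 531, 507, 571 and 404 in Hypo, all above Ctrl. It rose 1.58-fold, a difference of 0.42 ± 0.07 (SE; limma adjusted p = 0.0015). Trim5 and Trim12a were too low to be tested, and were 0.887 ± 1.03 and 0.470 ± 0.547 in Ctrl. Trim5 held 0, 1.74, 1.81 and 0 normalized counts in Ctrl and 19.7, 14, 14.7 and 12.8 in Hypo, which is 4 against 62 reads. Trim12a held 2 reads in Ctrl and 11 in Hypo, a ratio of 5.88 (exact 95% interval of the counts, 1.28 to 54.6). The Trim5 transcript aligned to that of Trim12c over 100% of its length at 94.6% identity, so reads of the 3 genes may have been split or lost in counting.

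Trim6, whose human protein builds ubiquitin chains that activate the kinase IKKε, had 235, 272, 273 and 244 normalized counts in Ctrl and 334, 345, 407 and 295 in Hypo. The groups did not overlap, and the rise was 1.35-fold (limma adjusted p = 0.015, and 0.052 without Ctrl replicate 1). Trim34b had 64.6, 86.9, 125 and 85.5 in Ctrl and 147, 135, 186 and 103 in Hypo. Here the highest Ctrl library was above the lowest Hypo library. The limma adjusted p of 0.043 was between 0.082 and 0.13 when Ctrl replicate 1, 2 or 4 or Hypo replicate 2, 3 or 4 was left out, and the whole Trim34b transcript aligned to Trim34a at 98.7% identity.

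Trim68, Trim34a, Trim30a and Trim30d of this group were not called. Trim68 stood at 501 ± 45.4 in Ctrl and 591 ± 41.2 in Hypo (limma adjusted p = 0.064, and 0.017 without Ctrl replicate 3). Trim30a, an inhibitor of NF-κB signaling in the mouse, stood at 153 ± 17.3 and 181 ± 35.8 (limma adjusted p = 0.32). Its Hypo replicate 5 was the lowest of all 8 libraries at 129, and without that library the limma adjusted p was 0.042. Trim34a was 62.1 ± 6.06 and 77.4 ± 9.46, and 23.5% of its exon bases lie opposite an antisense gene. Trim30d was 11.3 ± 3.13 and 10 ± 3.06 (limma adjusted p = 0.75).

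**Figure D4:**
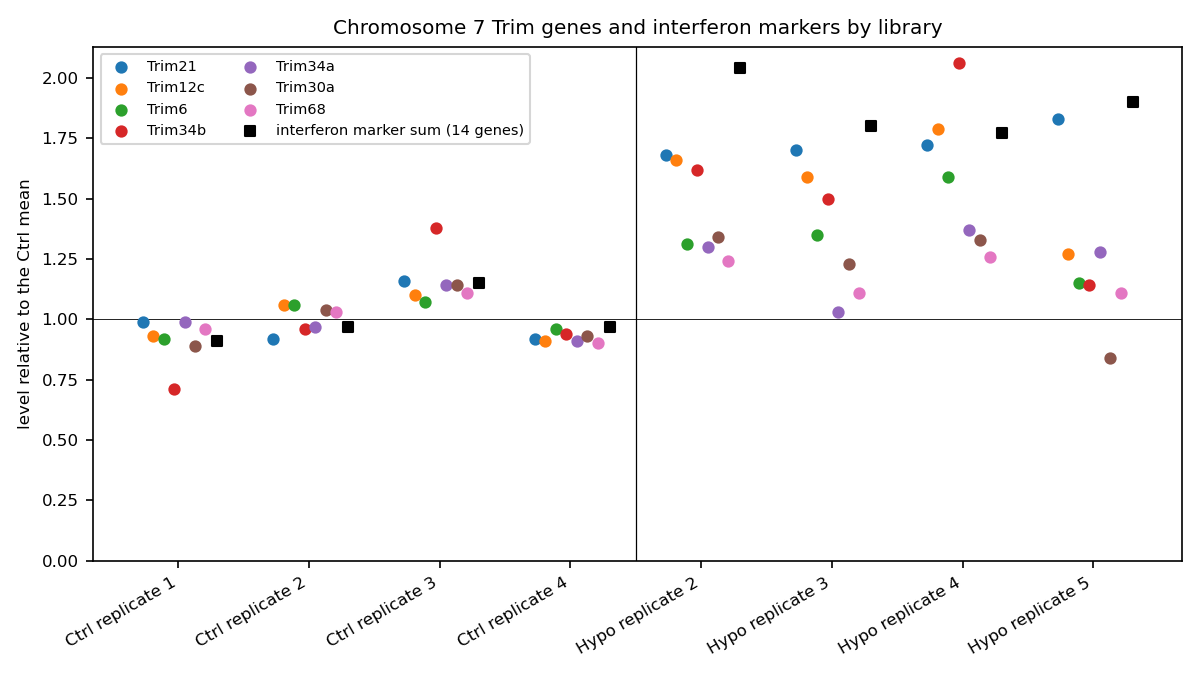
Level of 7 chromosome 7 Trim genes, and of the sum of 14 interferon-stimulated marker genes (squares), in each library relative to the mean of the 4 Ctrl libraries (y axis, from 0). The marker sum lies between 1.77 and 2.04 in Hypo, Trim21 between 1.68 and 1.83, and Hypo replicate 5 holds the lowest Hypo values of Trim12c (1.27), Trim6 (1.15), Trim34b (1.14) and Trim30a (0.84).

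Interferon-stimulated markers were measured beside the Trim genes. Of 14 such genes 13 were tested, 9 rose and none fell, beside 14.1% and 8.75% of all tested genes. Among those that rose were Oasl1 (4.91-fold) and Cxcl10 (4.14-fold). Of the 13 tested, 4 were not called, and 12 of the differences were above 0. Summed, the 14 genes gave 4510, 4800, 5703 and 4785 normalized counts in Ctrl. The Hypo sums were 10075, 8893, 8773 and 9385. Within the sums Oasl1 alone went from 550 ± 111 in Ctrl to 2700 ± 333 in Hypo. Ctrl replicate 3 had the highest Ctrl sum and also the highest Ctrl level of Trim21, Trim12c, Trim6, Trim34b, Trim34a, Trim30a and Trim68. This library also stood apart from its group over genes in general. Its squared read difference per gene, scaled to counting error, was 27.81, 25.65 and 36.11 from Ctrl replicates 1, 2 and 4. Among Ctrl replicates 1, 2 and 4 that measure was 4.52 to 6.03. Without Ctrl replicate 3 and Hypo replicate 4, the Hypo library with the lowest sum, 17 Trim genes rose and 6 fell. Over all 15746 tested genes 2835 rose and 2050 fell. Both libraries were picked after the data were seen, and by their sums each lies nearest the other group. Nothing is read from these counts. The part of interferon signaling in the Trim differences was not tested.

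Interferon-stimulated genes often carry an element to which interferon regulatory factors bind. It was searched as GAAA, any 2 bases and GAAA again, on either strand, with overlapping matches counted. It was found in 3.44% of all 32851 windows, and in 10 of the 59 Trim windows, which belong to 9 genes. Of these genes 3 rose (Trim21, Trim12c and Trim26), 4 were not called (Trim2, Trim30a, Trim30d and Trim34a) and 2 were not tested (Trim5 and Trim12a). Stretches of the RefSeq windows that hold it (GRCm38.p6) are shown for genes that rose and for the pair of low TRIM5 relatives, with the element in capitals. In Trim21 and Trim26 each run of capitals is 2 overlapping matches. The stretches are chr7:102565433-102565542 (Trim21, minus strand), chr7:104353300-104353409 (Trim12c, minus), chr7:104288057-104288166 (Trim5, minus), chr7:104315446-104315555 (Trim12a, minus) and chr17:36836946-36837055 (Trim26, plus).
Trim21: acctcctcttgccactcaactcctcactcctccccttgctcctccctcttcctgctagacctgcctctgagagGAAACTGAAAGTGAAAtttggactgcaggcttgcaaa
Trim12c: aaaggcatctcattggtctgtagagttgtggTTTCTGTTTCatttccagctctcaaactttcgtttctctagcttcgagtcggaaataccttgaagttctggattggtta
Trim5: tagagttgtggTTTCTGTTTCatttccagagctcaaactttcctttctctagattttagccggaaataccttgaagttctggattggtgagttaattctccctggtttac
Trim12a: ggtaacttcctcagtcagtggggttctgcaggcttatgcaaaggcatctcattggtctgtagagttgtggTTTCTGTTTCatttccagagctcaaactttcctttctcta
Trim26: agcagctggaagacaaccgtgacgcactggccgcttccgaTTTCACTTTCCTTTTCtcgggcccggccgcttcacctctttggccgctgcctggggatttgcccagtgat

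The same letters TTTCTGTTTC stood in Trim12c, Trim5 and Trim12a. Those genes, and Trim21, Trim30a, Trim30d and Trim34a, are of the chromosome 7 group, and Trim30a holds the element in both of its windows. Windows of near-copies are not independent, so nothing is read from the share of Trim windows beside that of all windows. A match is a description of the sequence, and whether a factor binds there was not measured.

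Trim26, Trim15, Trim10 and Trim40 lie side by side on chromosome 17 in the major histocompatibility complex, from 36837134 to 36890123 (GRCm38). Of these, Trim26, Trim15 and Trim40 rose, beside 14.1% of all tested genes. Trim15 and Trim40 had a Ctrl mean below 10 and passed the minimum only through Hypo. Trim26, a ligase that acts on the antiviral factor IRF3, was the abundant one and went from 2003 ± 157 to 2537 ± 109 (1.27-fold, limma adjusted p = 0.0019), with no overlap of the groups. Trim15, which is found at focal adhesions, had 3.07, 2.61, 3.62 and 5.98 normalized counts in Ctrl and 17.4, 21, 21.1 and 26.6 in Hypo. That is 5.62-fold, from 17 reads to 89.

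Trim40, known from the gut, where it restrains RNA sensors, had 1.02, 0.869, 13.6 and 3.42 normalized counts in Ctrl and 26.6, 27.1, 34.9 and 14.8 in Hypo. Ctrl replicate 3 came close to the lowest Hypo library, yet the groups did not overlap (5.47-fold, limma adjusted p = 0.0034). Trim10, an erythroid gene, was not tested, with 6 reads in Ctrl and 25 in Hypo, and its groups overlapped. Trim39, further along the complex, was 1291 ± 60.3 and 1397 ± 56.7 and was not called (limma adjusted p = 0.18).

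Of 17 Trim genes with a role in virus sensing, all tested, 5 rose and 4 fell, and the median difference was -0.03. The shares over all tested genes were 14.1% and 8.75%, and 5.79% and 15.1% at means of at least 1000. Those that rose were Trim21, Trim26 and Trim40, described above, and Trim25 and Trim29. Of these, Trim40 had a Ctrl mean below 10 and passed the minimum only through Hypo, so it had to differ. Trim25, which ubiquitinates the RNA sensor RIG-I, rose 1.17-fold from 3837 ± 169 to 4481 ± 118 (limma adjusted p = 0.0051), with all Hypo libraries above Ctrl. Trim29, an epithelial member that lacks a RING finger, had 51.2, 61.7, 51.6 and 50.4 normalized counts in Ctrl and 183, 183, 158 and 138 in Hypo. Its rise of 3.08-fold was a difference of 0.63 ± 0.06 (SE; limma adjusted p = 8.6e-06), the second largest among Trim genes on that scale.

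The 5 genes that fell were abundant and changed little. Trim32, an NHL-repeat ligase mutated in a human limb-girdle muscular dystrophy, held 1353, 1324, 1303 and 1323 normalized counts in Ctrl and 1123, 1058, 1042 and 1115 in Hypo. Both groups were tight and lay apart, and the level was 1.22-fold lower in Hypo (difference -0.24 ± 0.04, SE; limma adjusted p = 0.0021). Trim35, a ligase linked to cell death, held 3925, 3533, 3971 and 3587 in Ctrl and 3239, 3183, 2878 and 3215 in Hypo. It was 1.20-fold lower, with no overlap (limma adjusted p = 0.0068).

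Trim59, a membrane-anchored member, held 3780, 3208, 3162 and 3520 in Ctrl and 2672, 3085, 2688 and 2855 in Hypo. It was 1.21-fold lower in Hypo and the groups did not overlap, though Hypo replicate 3 was near the Ctrl range (limma adjusted p = 0.013). Trim16, which lacks a RING finger and takes part in the clearance of damaged lysosomes, held 1413, 1331, 1380 and 1448 in Ctrl and 1223, 1191, 1142 and 1171 in Hypo. The groups were separate at a 1.18-fold lower level (limma adjusted p = 0.0079), and 5.19% of the Trim16 exon bases are shared with Fbxw10 on the same strand.

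Trim27, a transcriptional repressor first found in a fusion with RET, held 2688, 2412, 2571 and 2660 in Ctrl and 2291, 2232, 2182 and 2417 in Hypo. These groups overlapped, since Hypo replicate 5 was just above Ctrl replicate 2. The 1.13-fold lower level passed the test (limma adjusted p = 0.034), but not when Ctrl replicate 1 or 4 or Hypo replicate 2, 3 or 4 was left out (limma adjusted p between 0.07 and 0.11).

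**Figure D5:**
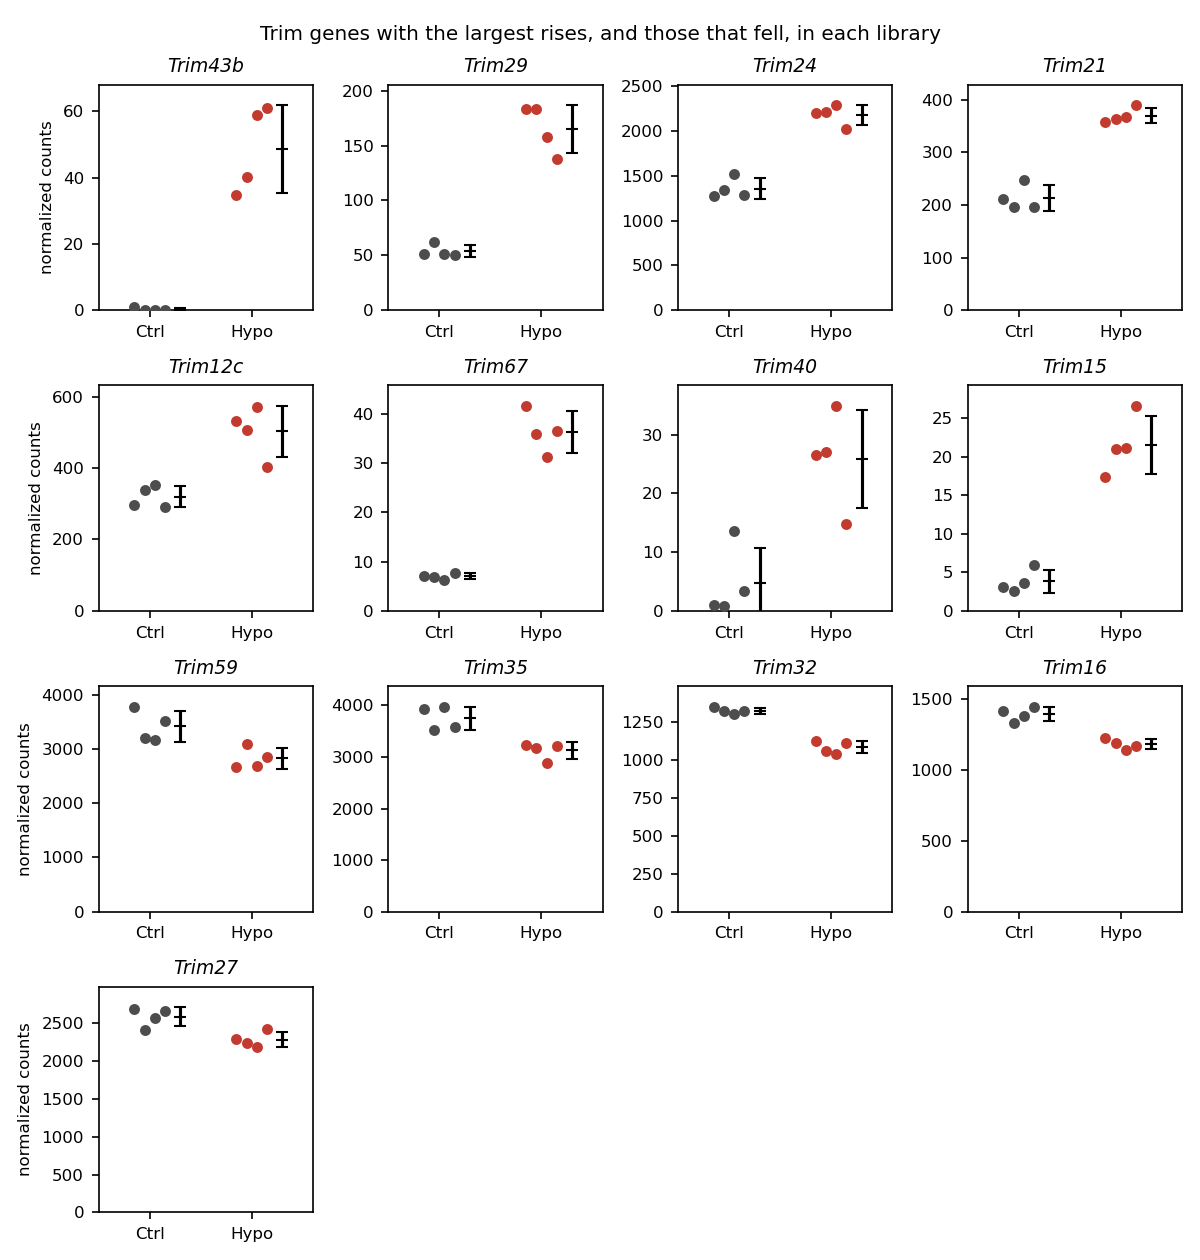
Normalized counts (y axes, from 0) in each library for the 8 Trim genes with the largest rises on the transformed scale and the 5 that fell. Points are libraries in replicate order, and bars show the mean ± SD of 4 libraries, cut off at 0 for Trim43b and Trim40 in Ctrl; of these 13 genes, Trim27 alone has overlapping groups.

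Of 6 Trim genes known from the testis or early embryo 3 were tested and 2 rose, Trim43b and Trim71. Of 6 with a COS box or from muscle, several of them neuronal and microtubule-bound, 4 were tested and 2 rose, Trim67 and Trim46. None fell in either list. Trim43b, Trim71 and Trim67 had a Ctrl mean below 10 and passed the minimum only through Hypo, so nothing is read from these counts. Trim43b, one of a mouse family known from the preimplantation embryo (ENSMUSG00000079162, chromosome 9, 89084624 to 89092835, GRCm38), showed the largest difference of the family. It held 1.02, 0, 0 and 0 normalized counts in Ctrl and 34.7, 40.2, 58.8 and 61 in Hypo. That is 1 read against 202 reads, a ratio of 216 with an exact 95% interval of 38.3 to 8570 that covers counting error only. The difference was 0.81 ± 0.06 (SE; limma adjusted p = 1.5e-06).

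Its neighbors Trim43a and Trim43c were not tested. Trim43a had 18 reads in Ctrl and 45 in Hypo, Trim43c had 19 and 20, and both groups overlapped. The 3 Trim43 transcripts are alike at 97.0% to 97.6% identity over most of their length, so their reads may have been split in counting.

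Trim67, a member of the nervous system related to the netrin-pathway ligase Trim9, had 7.17, 6.95, 6.34 and 7.69 normalized counts in Ctrl and 41.6, 35.8, 31.2 and 36.4 in Hypo. Ctrl was uniformly low, and the rise was 5.15-fold (limma adjusted p = 2e-05). Trim9 was not tested and had 2 reads in Ctrl against 16 in Hypo. Trim46, which bundles microtubules at the start of the axon, rose 1.26-fold from 392 ± 27.5 to 494 ± 15.7 (limma adjusted p = 0.0079), and 6.30% of its exon bases lie opposite Krtcap2. The NHL-repeat list held 4 genes, of which 1 rose (Trim71) and 1 fell (Trim32), beside 14.1% and 8.75% of all tested genes. Trim71 had a Ctrl mean below 10 and passed the minimum only through Hypo, so nothing is read from these counts. Trim71, the NHL-repeat stem cell gene Lin-41, rose 2.66-fold from 8.52 ± 4.43 to 22.6 ± 5.37 (limma adjusted p = 0.011), while the NHL-repeat genes Trim2 and Trim3 were not called (limma adjusted p = 0.70 and limma adjusted p = 0.59).

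Of the 12 Trim genes below the minimum, the Hypo libraries lay wholly above the Ctrl libraries in 5, Trim5, Trim52, Trim12a, Trim9 and Trim30b, beside 16.5% of all 7469 such low genes. Trim52 had no read in Ctrl, and 11.6, 4.37, 0.918 and 5.90 normalized counts in Hypo. Against a floor of 3 reads over the Ctrl group its 22 Hypo reads are at least 7.84-fold higher. The muscle genes Trim63 and Trim72 had overlapping groups, with 4 and 14 reads for Trim63 and 38 and 37 for Trim72, and of 4 muscle and erythroid Trim genes none was called. When no minimum was set, 20.2% of 23215 genes were called (14.3% rose and 5.9% fell), and Trim5 (limma adjusted p = 0.00012), Trim52 (0.0034), Trim9 (0.013), Trim12a (0.045) and Trim43a (0.046) were called as higher in addition to the 21 called genes.

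The 25 tested Trim genes that were not called had limma adjusted p from 0.061 to 0.84. They include Trim56, a ligase of the DNA-sensing pathway (3701 ± 239 and 3835 ± 135), the cytokine-signaling regulator Trim8 (2138 ± 201 and 1921 ± 211), Trim44 (5558 ± 279 and 5422 ± 115) and Trim41 (1650 ± 115 and 1452 ± 75.9), whose limma adjusted p of 0.061 was the lowest of them. Trim37, a ligase of centrioles and peroxisomes, and Trim69, a testis gene, had groups that did not overlap, lower in Hypo for Trim37 (3784 ± 96.4 and 3472 ± 145) and higher for Trim69 (11.2 ± 2.82 and 17.2 ± 2.45). Neither passed the test (limma adjusted p = 0.082 and limma adjusted p = 0.12). Trim11 was 828 ± 86.1 and 714 ± 41.8 (limma adjusted p = 0.096, and 0.01 without Ctrl replicate 3). Reads of Trim14 cannot be told from those of Nans on the opposite strand, which shares 31.3% of its exon bases, if counting did not use strand.

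Tripartite motif genes that go by other names are not part of the 58. Of 8 such genes 5 were tested. Bspry, an epithelial relative without a RING finger, rose 1.63-fold from 497 ± 16.6 to 811 ± 55.5 (limma adjusted p = 2.5e-05). Rnf207, known from heart muscle, rose 2.48-fold from 19.3 ± 7.94 to 47.9 ± 8.88 (limma adjusted p = 0.0038). Pml, the organizer of nuclear bodies, fell 1.12-fold (limma adjusted p = 0.039), a call that was lost on leaving out any library but Ctrl replicate 3 and Hypo replicate 5. Mid1 and Mid2, the microtubule-associated ligases, were not called (limma adjusted p = 0.13 and limma adjusted p = 0.80).

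Among 15 genes of RNA and DNA sensing and its signaling, on which many Trim ligases act, 7 rose and 2 fell, beside 14.1% and 8.75% of all tested genes, with a median difference of 0.21. The RNA sensor Ifih1 rose 1.48-fold (limma adjusted p = 3.9e-05), Rigi, the target of Trim25, rose 1.35-fold (limma adjusted p = 0.0004), and the transcription factor Irf7 rose 1.90-fold (limma adjusted p = 0.00054). The adapter Mavs fell 1.24-fold (limma adjusted p = 0.022) and Traf3 fell 1.18-fold (limma adjusted p = 0.012), and 1 of these 2 falls was called without Hypo replicate 2, 3 or 5. Of 19 ubiquitin-activating (E1) and ubiquitin-conjugating (E2) enzymes, which supply the RING finger, 1 rose and 2 fell, 15.8% called against 22.8% of all tested genes. Ube2l6, the E2 of the interferon-induced modifier ISG15, rose 1.21-fold (limma adjusted p = 0.033), a call lost on leaving out Ctrl replicate 2, Ctrl replicate 4, or any Hypo library but replicate 5. Ube2g2 fell 1.26-fold (limma adjusted p = 0.006) and Ube2d3, a partner of many RING ligases, 1.14-fold (limma adjusted p = 0.015), while the number of enzymes that fell was 1 without Ctrl replicate 1 and 4 without Ctrl replicate 3, where 881 and 2095 of all genes fell.

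Depth ran from 27486245 gene reads in the smallest library, Hypo replicate 2, to 39388394 in the largest, Ctrl replicate 4. All 6 mammary epithelial markers were detected, and their sum lay between 100513 and 113781 normalized counts in the 8 libraries. Epcam alone of them was called, 1.23-fold higher in Hypo (limma adjusted p = 0.00036). The sum of 5 immune markers lay between 350 and 648 in Ctrl and between 769 and 999 in Hypo, that of 4 endothelial markers between 23.5 and 50.4 and between 103 and 127, and that of 3 fibroblast markers between 2189 and 2556 and between 2853 and 3444. The planned markers Cd3e, Adgre1, Emcn, Lum and Col3a1 were not among the genes compared and are not in these sums. No marker in these sums was at 0 in all libraries. Ptprc (9.26 ± 1.48 to 35.5 ± 5.55), Csf1r (110 ± 4.40 to 279 ± 76.9), Cdh5 (16.2 ± 5.70 to 78.2 ± 10.5) and Col1a1 (399 ± 32.3 to 985 ± 203) were called as higher. Cd68 (356 ± 125 and 546 ± 170), Pecam1 (16.1 ± 8.42 and 19.9 ± 2.88) and Pdgfra (2062 ± 182 and 2276 ± 132) were tested and not called. The other 5 in these sums were below the minimum. Tek had overlapping groups at 2.04 ± 0.401 and 1.37 ± 1.17. Hypo lay wholly above Ctrl in Kdr (1.64 ± 1.03 to 11.1 ± 1.89) and Dcn (0.214 ± 0.427 to 3.68 ± 3.02). It did so too in Cd79a (3.35 ± 1.15 to 7.31 ± 1.1) and Itgam (0.7 ± 0.471 to 3.21 ± 1.13), beside 16.5% of all genes below the minimum. The part of these markers in the Trim results was not tested.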

How the data were processed

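RNA was sequenced in 8 libraries of 4T1 cells, grouped by the sample titles. Per the study's methods, libraries were stranded and poly(A)-selected, reads were trimmed on quality and aligned with STAR to GRCm38, and reads were tallied per gene in htseq-count mode. The sources used here do not state whether the tally used strand. The authors deposited normalized counts, a signal obtained by dividing the reads of each library by its DESeq2 size factor, and variance-stabilized values on a log2-like scale, where 0 reads is 7.08 and differences of low genes are compressed. Whole reads could be recovered (100% of values within 0.01 of a whole read, 27486245 to 39388394 per library). Reads without molecular identifiers are not independent molecules, so intervals and floors cover counting error only. The authors' own fold changes and p-values were deposited in the same table and were not used.

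Both tables list 23215 genes, of which 15746 averaged at least 10 normalized counts. These were tested two-sided with limma 3.58.1 (trended empirical Bayes, Benjamini-Hochberg adjustment) on the transformed values in R 4.3.3, and called at an adjusted p below 0.05. The fit was tested on simulated data. Folds are ratios of mean normalized counts. Ratios with an exact interval or a floor instead divide the reads of each group by its summed size factors. Exon lengths and positions came from the GENCODE annotation of GRCm38, promoters from RefSeq. Transcripts of different Trim genes were aligned to each other, and stretches of at least 90% identity were kept. Every called Trim gene is named. Values per library are given for the 8 largest rises and all falls, the TIF1 members and the called genes of the chromosome 7 group. In related lists up to 4 called genes with the smallest p, and cell type markers, are named. Trim5, Trim9, Trim11, Trim12a, Trim30a, Trim34a, Trim37, Trim41, Trim43a, Trim43c, Trim44, Trim52, Trim68, Trim69, Trim72, Setdb1, Mid1, Mid2, Mavs, Traf3 and genes in the closing section were named after their values were seen. The Trim genes and the lists were chosen with earlier results of these data known. Alternatives were other minimums and scalings, log2 normalized counts after adding 1 or 5, each library left out, the replicate number as a block, and edgeR 4.0.16 and DESeq2 1.42.0 on the recovered reads. Leaving out Ctrl replicate 3 with Hypo replicate 4 was added after seeing the data.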

Additional observations from a re-analysis of the deposited data

Results flagged for a closer look

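In 5 of 44 groups of 4 libraries, from the 21 called Trim genes and Trim28, 1 library stood apart from the other 3 by Dixon's criterion, which chance meets in about 1 in 20 groups. Trim43b was 1.02 in Ctrl replicate 1, a single read, and 0 in the other Ctrl libraries. Trim29 was highest in Ctrl replicate 2 at 61.7 normalized counts. Trim66 was lowest among Hypo libraries in replicate 4 at 38.6, and Trim35 likewise at 2878. Trim25 was highest among Ctrl libraries in replicate 3 at 4089. Each of these libraries stayed on its own group's side of the other group.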

How the results depend on the processing

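The 21 calls were all shared with limma on log2 normalized counts, whether 1 or 5 was added first, with edgeR, and with DESeq2, which added the falls of Trim11, Trim37 and Trim41, so that 8 fell. Over all genes the falls went from 1378 to 1881 under DESeq2. A minimum of 50 left 37 Trim genes and 9 rises, since 6 of the lost calls were no longer tested and Trim34b missed the threshold (limma adjusted p = 0.052), and 1 rise among genes under other names. Without 1 library, 14 to 17 Trim genes rose and 4 to 6 fell, while over all genes 1800 to 2743 rose and 852 to 2095 fell. For the related lists these ranges were 0 to 1 falls for other names, 1 to 2 falls for Trim28 partners, 1 to 2 falls for sensing, and 0 to 1 rises and 1 to 4 falls for E1 and E2 enzymes. Without Ctrl replicate 3 and Hypo replicate 4 together, 2 Trim28 partners fell, and 0 E1 and E2 enzymes rose and 4 fell. After quantile normalization 0 E1 and E2 enzymes rose, Trim27, Trim34b, Trim6 and Trim71 lost their calls (limma adjusted p = 0.062, 0.23, 0.076 and 0.1), and Trim62 was called as lower (limma adjusted p = 0.023). The causes were not tested.

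Among the tested Trim genes, signs turned only in genes that were not called. After quantile normalization the differences became -0.03 for Trim34a, -0.01 for Trim30a, -0.06 for Trim54, 0.03 for Trim44, -0.03 for Trim45, 0.02 for Trim28 and -0.07 for Trim14. With 1 library left out they ranged from -0.00 to 0.07 for Trim2 (below 0 without Ctrl replicate 3), from -0.09 to 0.00 for Trim28 (above 0 without Ctrl replicate 1 or Hypo replicate 4), from -0.04 to 0.00 for Trim30d (above 0 without Hypo replicate 5), from -0.08 to 0.01 for Trim65 (above 0 without Ctrl replicate 1 or Hypo replicate 2) and from -0.03 to 0.06 for Trim14 (below 0 without Ctrl replicate 1 or Hypo replicate 2).

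Deviations of same-numbered libraries from their group means correlated at r = -0.106, -0.214 and -0.17 over genes for numbers 2, 3 and 4. These values cannot decide whether the replicate numbers pair the samples. Ctrl replicate 3 stood apart from its group and enters the group mean from which every Ctrl deviation is taken. No library correlated best with its own number. Libraries of different numbers correlated at r from -0.594 (Ctrl replicate 3 with Hypo replicate 5) to 0.524 (Ctrl replicate 4 with Hypo replicate 5). Whether samples are paired under other numbers was not tested. With the replicate number as a block, replicates 1 and 5 have 1 library each, and 10 Trim genes rose and 0 fell, while over all genes 1283 rose and 322 fell. The 10 were all among the 21 calls, and Trim6, Trim16, Trim25, Trim26, Trim27, Trim32, Trim33, Trim34b, Trim35, Trim46 and Trim59 were not called. In the same fit 1 gene under another name rose and 0 fell, 2 Trim28 partners rose and 0 fell, 4 sensing genes rose and 0 fell, and 0 E1 and E2 enzymes rose and 1 fell. Depth limits the 12 genes below the minimum, where Ctrl held 0 to 38 reads.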

Other observations

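Another 4 Trim genes, Trim50, Trim55, Trim38 and Trim80, were present in the transformed table only and are not among the 58. Their values lay between 7.08, the value at 0 reads, and 7.32 in all 8 libraries. Trim50 was above 7.08 in Ctrl replicates 2 and 3 and Hypo replicates 3 and 4, and Trim80 in Ctrl replicates 1 and 2 and Hypo replicate 2.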
